A study of Mus musculus with 6 samples.

Results

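To examine the protein-folding machinery of the cytosol in nerves whose Schwann cells lack Rnf40, read counts of 10 genes for cytosolic heat shock chaperones were taken from RNA-Seq of mouse sciatic nerve. The set holds 10 of the 24015 genes counted. It was chosen from the measured values themselves, since Hspa4l had lower counts in the mutant libraries, and 9 more genes were taken as its relatives and partners. The difference between genotypes is therefore a description of these 10 genes and supports nothing about them. How many of them pass the limits of the fit over all genes is stated once, beside the share of all genes that do. Control mice carried Rnf40 fl/fl alleles without Cre. Rnf40ΔSC mice carried the same Rnf40 fl/fl alleles together with a Dhh::Cre transgene, which is active in the Schwann cell lineage, so that other cells of the nerve keep Rnf40. Both genotypes were sampled at postnatal day 14 with 3 libraries each, every one made from 3 pooled sciatic nerves. The labels give a mixed 129SvJ/C57Bl/6J background for all 6 libraries, whereas the study's methods name C3H in place of 129SvJ.

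HSP70 chaperones bind unfolded stretches of client proteins in a cycle driven by ATP. J-domain proteins such as Dnajb1 stimulate the hydrolysis step, members of the HSP110 family (Hspa4l, Hspa4 and Hsph1) act as exchange factors that let HSP70 release ADP, and HSP90 acts on clients that are further along in folding. Small heat shock proteins such as Hspb1 and Hspb8 hold unfolded proteins without ATP, and mutations in the human genes of this pair cause hereditary motor neuropathies and axonal Charcot-Marie-Tooth disease. Many of these genes are induced by heat shock factor 1, which binds heat shock elements, inverted repeats of the unit GAA.

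Because stress-inducible chaperone genes are commonly controlled through such elements, the promoters were searched for them. RefSeq windows of 300 bases on build GRCm38.p6, from 250 bases before to 50 bases after the start, were held for 8 of the 10 genes. No window was used for Hspa8 and Hsp90aa1. The element of 3 units was searched as GAANNTTCNNGAA and TTCNNGAANNTTC, which are each other's reverse complement, and the shorter ones of 2 units as GAANNTTC and TTCNNGAA, which each read the same on both strands and are contained in the longer element. Among all 32851 windows, 0.603% held an element of 3 units and 15.1% held any of 2 units. Counted by gene, 179 of 27025 had an element of 3 units and 4587 any of 2 units. Of the 8 genes, Hsph1 had an element of 3 units, and 5 genes (Hspa1a, Hspa1b, Hsph1, Hspb1 and Hspb8) had at least 1 of 2 units. Capitals mark the matches in the 5 windows shown here, which were picked to set the lower gene Hspa4l beside its relatives Hspa4 and Hsph1, the other lower gene Hspb8 and an inducible HSP70 gene. The windows lie on the plus strand at chr3:40745363-40745662 for Hspa4l, and on the minus strand at chr11:53300430-53300729 for Hspa4, chr5:149636266-149636565 for Hsph1, chr5:116422815-116423114 for Hspb8 and chr17:34972107-34972406 for Hspa1a.
Hspa4l: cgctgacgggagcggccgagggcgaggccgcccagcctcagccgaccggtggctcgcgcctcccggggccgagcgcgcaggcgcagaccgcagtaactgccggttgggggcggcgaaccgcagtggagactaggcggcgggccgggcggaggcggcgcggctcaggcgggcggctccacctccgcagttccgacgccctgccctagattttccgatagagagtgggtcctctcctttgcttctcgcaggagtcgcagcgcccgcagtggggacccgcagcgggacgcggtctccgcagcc
Hspa4: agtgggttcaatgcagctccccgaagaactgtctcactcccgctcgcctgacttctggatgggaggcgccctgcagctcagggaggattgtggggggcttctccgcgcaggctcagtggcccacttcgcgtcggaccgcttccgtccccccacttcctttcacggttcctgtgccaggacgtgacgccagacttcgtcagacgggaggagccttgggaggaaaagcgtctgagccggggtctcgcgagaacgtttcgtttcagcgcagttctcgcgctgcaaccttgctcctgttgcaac
Hsph1: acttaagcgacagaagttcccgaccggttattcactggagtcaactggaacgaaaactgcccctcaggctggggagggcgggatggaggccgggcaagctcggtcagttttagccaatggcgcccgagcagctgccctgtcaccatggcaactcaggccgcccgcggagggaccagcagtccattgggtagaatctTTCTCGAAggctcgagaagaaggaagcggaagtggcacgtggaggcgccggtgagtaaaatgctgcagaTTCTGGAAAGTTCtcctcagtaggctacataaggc
Hspb8: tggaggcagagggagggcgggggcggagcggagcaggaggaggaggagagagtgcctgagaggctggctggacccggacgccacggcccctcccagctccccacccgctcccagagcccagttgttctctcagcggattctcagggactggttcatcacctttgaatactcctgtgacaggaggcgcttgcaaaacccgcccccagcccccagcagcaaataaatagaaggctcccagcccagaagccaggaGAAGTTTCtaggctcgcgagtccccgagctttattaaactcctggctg
Hspa1a: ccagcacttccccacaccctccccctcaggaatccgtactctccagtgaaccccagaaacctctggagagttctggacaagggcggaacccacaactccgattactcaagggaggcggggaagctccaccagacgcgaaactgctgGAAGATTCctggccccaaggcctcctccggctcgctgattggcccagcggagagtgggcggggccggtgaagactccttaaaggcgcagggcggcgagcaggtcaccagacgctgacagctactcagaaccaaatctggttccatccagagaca
The windows of Hspa4l and Hspa4 held no match, which says only that these letters are not in these windows. The Hspa4l window was also the richest in G and C among the 10 windows of members, at 74.7%. The windows of Hspa1a and Hspa1b, which are neighbouring genes on chromosome 17, differed at 4 of 300 bases.

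Control replicates 1, 2 and 3 held 1317167, 1992622 and 2468765 reads on genes, and Rnf40ΔSC replicates 1, 2 and 3 held 2184268, 1459387 and 2186710. Counts were scaled by TMM to a common library size, and these normalized counts are used for all levels that follow. At this depth Hspa1a, Hspa1b and Hspb1 were too sparse to pass the filter on low counts, so that 7 of the 10 genes entered the fit of 11371 genes. The label of the genotype was first checked by Rnf40 itself (chromosome 7, 134732212 to 134747119 in mm9). It had 130, 126 and 142 normalized counts in control and 90.2, 90.4 and 94.2 in Rnf40ΔSC libraries, with no overlap. In bulk tissue, fewer cells of a type and less RNA per cell cannot be told apart. The log2 fold change of Rnf40 was -0.54 (SE 0.14, adjusted p = 0.00242 from edgeR), and -0.27 with adjusted p = 0.12 (0.00235 to 0.12 over all alternatives) when libraries were scaled by total counts instead. The loxP sites flank only 2 exons, so that counts over the whole gene check the label in part. Its partner in the E3 ligase, Rnf20, was higher by 0.44 (SE 0.13, adjusted p = 0.00998 from edgeR, 5.82e-05 to 0.087 over all alternatives), and did not pass with DESeq2 or without control replicate 3 or Rnf40ΔSC replicate 1.

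Across all genes tested, 1841 (16.2%) were lower and 1756 (15.4%) higher in Rnf40ΔSC nerves at an adjusted p of 0.05, and 574 (5.05%) were lower and 424 (3.73%) higher by the limits of the study, which add an absolute log2 fold change of 0.8 and a base mean of 20 normalized counts. All Rnf40ΔSC libraries lay below all control libraries in 21.6% of the genes tested and above them in 22% of them. Scaled by total counts, 880 genes were lower and 3766 higher, since that scaling moves the median log2 fold change of all genes from -0.0026 to 0.27. Lower genes made up 51.2% of the genes past the adjusted p after TMM and 18.9% after total counts, and 57.5% and 20.5% by the study's limits. Among the 7 chaperone genes tested, 2 were lower by the study's limits and 0 higher, and 1 more was higher at the adjusted p alone. In 3 of them the Rnf40ΔSC libraries lay below all controls and in 1 above. Since the set was chosen from the same contrast, nothing is read from these shares.

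In the HSP110 family, Hspa4l (chromosome 3, 40548417 to 40600025 on the plus strand in mm9) was low and variable in control and lower in every Rnf40ΔSC library. Control replicates had 50.8, 102 and 93.0 normalized counts, and Rnf40ΔSC replicates 22.4, 20.5 and 31.9, from 17 to 108 raw reads each. All Rnf40ΔSC values lay below all control values, and control replicate 1 stood nearer to them than the other controls. Means were 82.1 ± 27.5 and 24.9 ± 6.13 (SD, n = 3 each), and the log2 fold change was -1.73 (SE 0.24). It was -1.46 under total-count scaling, and leaving out single libraries gave values from -1.96 to -1.56.

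Its close relative Hspa4 (chromosome 11, 53073316 to 53113959 on the minus strand) was more abundant and differed the other way. It had 270, 280 and 299 normalized counts in control and 392, 393 and 357 in Rnf40ΔSC libraries, again without overlap. The log2 fold change was 0.42 (SE 0.10), and 0.69 under total-count scaling, both within the limit of 0.8 used by the study. Of all 31-base words in their exons, 98.1% were unique in the genome for Hspa4l and 100% for Hspa4, so that little of either gene is shared with other loci at this word length. Hsph1, the third member of the family (chromosome 5), had 97.4 to 136 normalized counts over the 6 libraries, with overlapping groups and a log2 fold change of -0.17 (SE 0.14), which was 0.10 under total-count scaling.

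The ratio within the pair does not depend on how libraries were scaled. Hspa4l took 15.8% of the reads of Hspa4l and Hspa4 together in control replicate 1 (95% exact binomial interval 11.1 to 21.6%), 26.8% in replicate 2 (22.2 to 31.7%) and 23.7% in replicate 3 (19.9 to 27.9%). In Rnf40ΔSC libraries the share was 5.39% (3.58 to 7.74%), 4.96% (2.91 to 7.82%) and 8.20% (5.92 to 10.99%). The intervals cover counting error only. The share restates the lower counts by which Hspa4l was chosen and is no test of the genotypes.

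**Figure D1:**
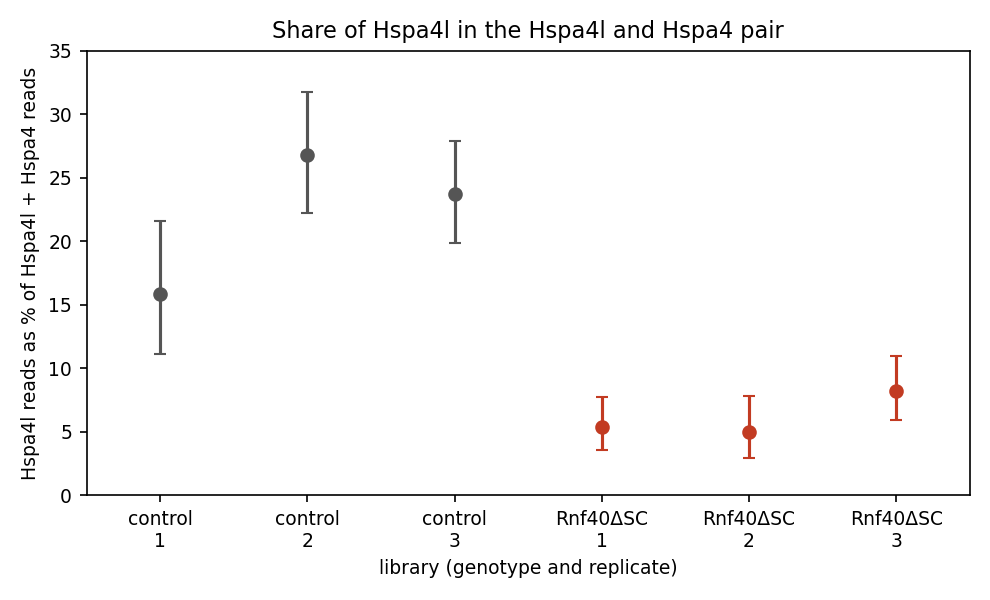
Reads of Hspa4l as a percentage of the reads of Hspa4l and Hspa4 together in each of the 6 libraries, with 95% exact binomial intervals as bars. Control libraries lie between 15.8% and 26.8% and Rnf40ΔSC libraries between 4.96% and 8.20%.

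Among the HSP70 genes, Hspa8, the constitutive HSP70 of the cytosol, was abundant and nearly level. It had 249, 222 and 211 normalized counts in control and 203, 207 and 211 in Rnf40ΔSC libraries. The lowest control and the highest Rnf40ΔSC library were 210.88 and 210.66, so that the groups, although they do not overlap, touch. The log2 fold change was -0.13 (SE 0.11), and it was 0.14 under total-count scaling. Unique 31-base words made up 56.5% of Hspa8, whose exons also hold small nucleolar RNA genes, so that reads from the rest may have been left out. Hspa1a and Hspa1b, the stress-inducible HSP70 genes, had 1 to 11 and 3 to 10 raw reads in a library. Their exons were unique in 33.8% and 31.5% of words, so that reads of this near-identical pair are uncertain, and a difference between genotypes was not tested.

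The J-domain gene Dnajb1 had 55.6, 77.4 and 46.5 normalized counts in control and 53.0, 61.5 and 73.4 in Rnf40ΔSC libraries. The groups overlapped fully, with a log2 fold change of 0.08 (SE 0.20) that ranged from -0.11 to 0.32 when libraries were left out. The highest value over all alternatives was 0.35. Hsp90aa1, the inducible HSP90 of the cytosol, had 36.5, 51.2 and 43.9 normalized counts in control and 28.2, 27.7 and 40.7 in Rnf40ΔSC libraries. Rnf40ΔSC replicate 3 lay within the control range, and the log2 fold change was -0.44 (SE 0.23), -0.17 under total-count scaling and -0.66 without that library. Only 37.6% of its words were unique, so that its level may be undercounted in both genotypes.

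**Figure D2:**
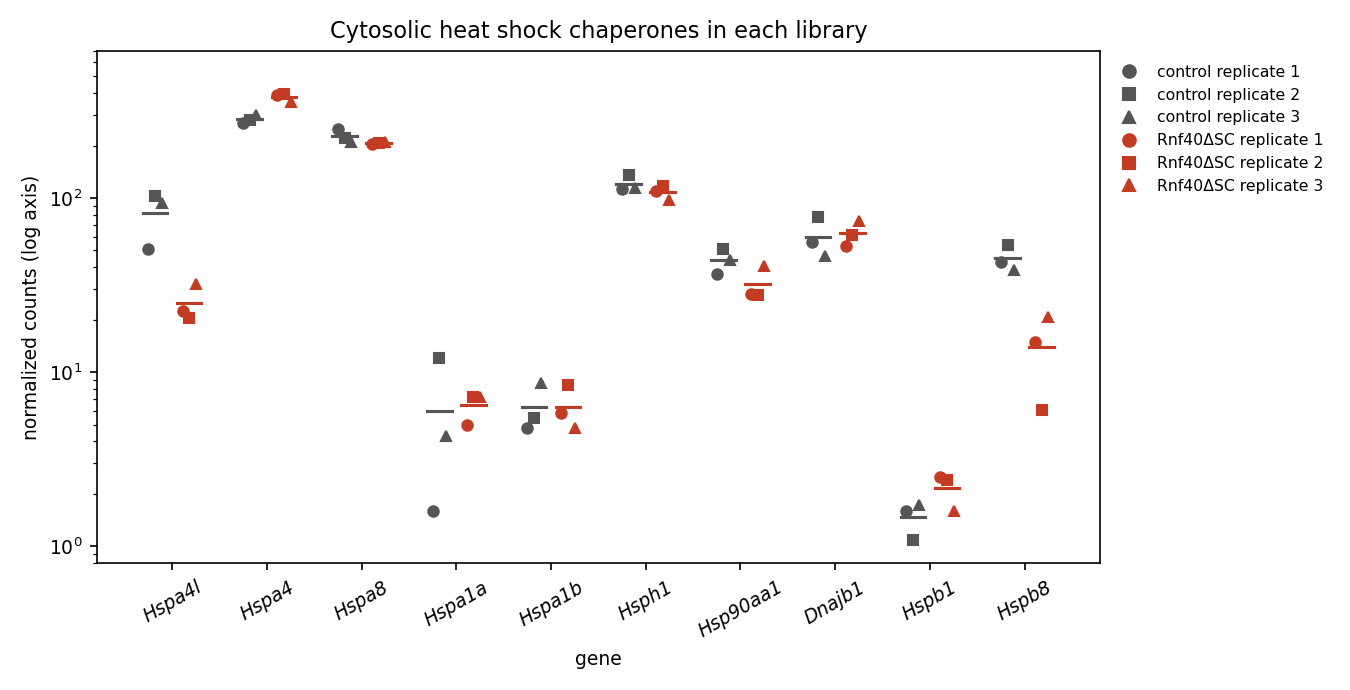
Normalized counts on a log axis of the 10 genes in the 3 control (grey) and 3 Rnf40ΔSC (red) libraries, with the symbol giving the replicate and a line the mean of the genotype. Hspa4l and Hspb8 lie lower and Hspa4 higher in all Rnf40ΔSC libraries, whereas Hspa1a, Hspa1b and Hspb1 stay at or below 12.0 normalized counts.

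The small heat shock genes differed in detection. Hspb8 (chromosome 5, 116858500 to 116872873 on the minus strand) had 42.9, 53.4 and 38.7 normalized counts in control and 14.9, 6.03 and 20.7 in Rnf40ΔSC libraries, without overlap. Means were 45.0 ± 7.56 and 13.9 ± 7.41 (SD, n = 3 each), and the log2 fold change was -1.61 (SE 0.30). The log2 fold change of Hspb8 was -1.34 under total-count scaling, and leaving out single libraries gave values from -1.98 (without Rnf40ΔSC replicate 3) to -1.32 (without Rnf40ΔSC replicate 2). Rnf40ΔSC replicate 2, with 5 raw reads, was the lowest library. Hspb1 had 1 to 3 raw reads in every library, at or below the floor of 3 counts, so that no fold is given. Only 35.02% of its words were unique.

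Hspb8 is also expressed in muscle, and the skeletal muscle markers of these pools were uneven. Summed over 16 muscle genes, control libraries had 9387, 7244 and 5345 normalized counts and Rnf40ΔSC libraries 209, 534 and 6786, with Myh4 as the most abundant gene. The sum in Rnf40ΔSC replicate 3 thus lay within the control range, while its 20.7 counts of Hspb8 lay below the lowest control. Its muscle genes were not those of the controls in proportion, since Myh2, a myosin of another fibre type than Myh4, had 282 normalized counts there against 7.94, 73.0 and 23.2 in control, and Myh7, the slow myosin, 114 against 1.59, 25.1 and 18.9. Myh2 and Myh7 were named after their values were seen. Of 15 muscle genes tested in edgeR, 0 passed an adjusted p of 0.05 and 0 had an unadjusted p under 0.05, as did 0 and 0 of the 12 tested in DESeq2, but 12 were lower past the adjusted p without Rnf40ΔSC replicate 3. The defining markers Acta1, Ckm and Myh4 had log2 fold changes of -1.18 (SE 1.38), -1.68 (SE 1.22) and -2.16 (SE 1.35), and of -4.10, -4.58 and -5.23 without that library. Without it, Hspb8 had a log2 fold change of -1.98 and Hspa4l of -1.96. The part of muscle RNA in the values of Hspb8 was not tested.

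**Figure D3:**
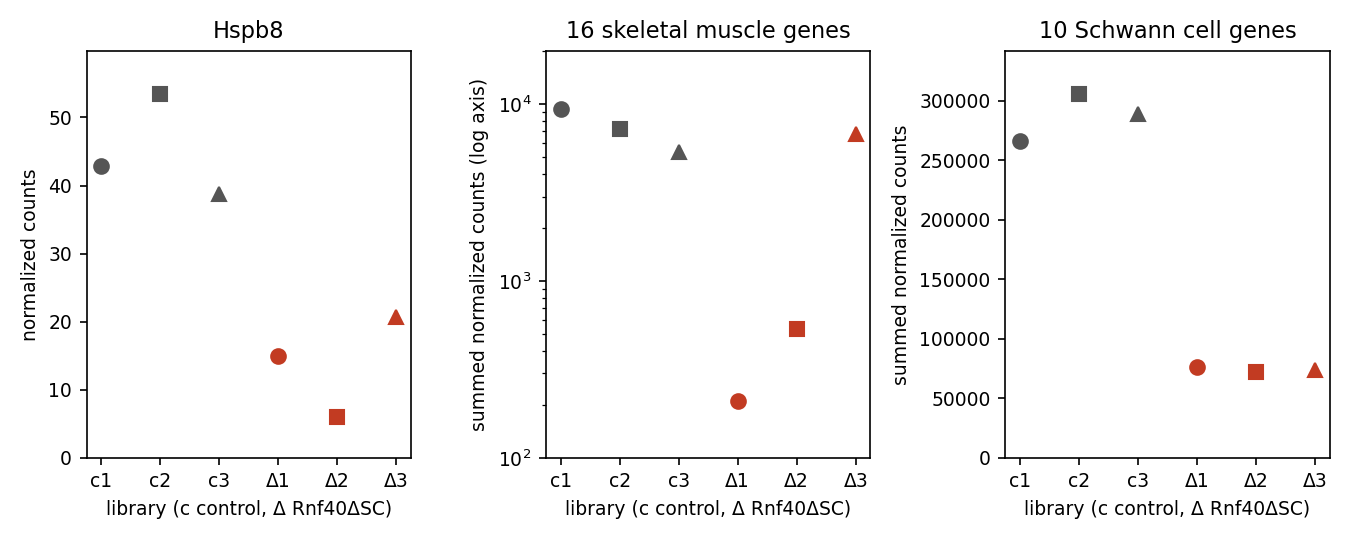
Normalized counts of Hspb8, summed normalized counts of 16 skeletal muscle genes (log axis) and summed normalized counts of 10 Schwann cell genes in each library, with control in grey and Rnf40ΔSC in red. Rnf40ΔSC replicate 3 has 6786 muscle counts, within the range of controls, and 20.7 counts of Hspb8, below all controls.

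Markers of the labelled tissue were present in all libraries. Of 10 Schwann cell genes, 9 were lower and 1 higher at an adjusted p of 0.05, and their sum was 266460, 305390 and 288840 normalized counts in control against 76462, 72301 and 73534 in Rnf40ΔSC libraries. Sox10, a factor of the Schwann cell lineage, fell by 0.79 on the log2 scale (SE 0.09) and S100b by 0.89 (SE 0.10). Lower genes also made up 5 of 8 smooth muscle, 5 of 7 fibroblast, 6 of 8 endothelial, 4 of 7 macrophage and 4 of 7 adipocyte markers tested, beside 16.2% of all genes. These numbers depended on the scaling. Total counts left 3, 2, 1, 2 and 3 lower genes in that order, beside 880 of all 11371 genes tested. That scaling also made 1 gene of the fibroblast list higher. The most abundant genes of the 5 lists were Pdgfrb, Col1a2, Cdh5, Csf1r and Fabp4, of which Fabp4 did not pass (log2 fold change -0.43, SE 0.28, adjusted p = 0.33 from edgeR). Among their other defining markers, Rgs5, Pdgfra, Dcn, Pecam1, Kdr, Cd68, Cd163, Adipoq and Plin1 were lower, with log2 fold changes from -1.31 (Plin1, SE 0.26) to -0.26 (Dcn, SE 0.07). Of these, Plin1 and Cd68 also passed under total-count scaling, but Cd68 did not pass with DESeq2 or without control replicate 3. Cdh5 passed in the main analysis (adjusted p = 0.000119 from edgeR), but not in every alternative (1.12e-06 to 0.0598 over all alternatives). Myh11 (-0.46, SE 0.25) and Lum (0.12, SE 0.09) did not pass, although Lum did under total-count scaling. Myh11 passed with no filter on low counts, with the replicate block, or without control replicate 2 or Rnf40ΔSC replicate 3. Of the neuron markers, 1 of 4 tested was higher (Snap25, on 3 to 23 raw reads, which did not pass in DESeq2 without a fold-change prior), Nefh was the most abundant, and Rbfox3 and Elavl3 were too sparse for a test. Of the erythroid list, Alas2 alone could be tested and did not pass (log2 fold change -0.65, SE 0.34, adjusted p = 0.144 from edgeR, 0.00273 to 0.558 over all alternatives), except without Rnf40ΔSC replicate 3. The 6 globin genes of that list had 0 counts. Unique 31-base words made up 4.155% of Hba-a1, 5.345% of Hba-a2, 49.68% of Hbb-b1 and 44.54% of Hbb-b2. Globin reads may therefore have been left out, and the 0 counts do not show that globin RNA was absent. The marker lists measure RNA and not numbers of cells. By staining, the paper found more Iba1-positive macrophages in Rnf40ΔSC nerves at this age. The part of these cell types in the chaperone values was not tested.

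Libraries of 1 genotype varied to different extents from gene to gene. The SD of log2 CPM around the genotype means was 0.44 for Hspa4l and 0.57 for Hspb8, larger than in 97% and 98% of the 500 genes nearest in abundance. It was 0.26 for Hspa4l without control replicate 1 and 0.25 for Hspb8 without Rnf40ΔSC replicate 2. Neighbours were matched on the mean over both genotypes. The low counts of Hspa4l and Hspb8 in Rnf40ΔSC libraries can add counting error, so that their ranks are not independent of the genotype difference. Hspa4 and Hspa8 varied little, with SDs of 0.08 and 0.09, larger than in 14.8% and 20.2% of their neighbours. The SD of Hspa8 ran from 0.04 to 0.10 with 1 library left out. Hsph1, Hsp90aa1 and Dnajb1 stood at 40.2%, 58.2% and 86.4%.

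Per kb of exon, levels could be set side by side, with the length taken as the union of all annotated exons of a gene. In control, Hspa8 and Hspa4 led with 28.4 ± 2.46 and 26.5 ± 1.37 CPM per kb (SD, n = 3 each), which did not differ beyond their spread. Dnajb1 with 12.6 ± 3.33 and Hspb8 with 12.0 ± 2.01 followed, then Hsph1 with 8.90 ± 0.98, Hsp90aa1 with 5.79 ± 0.97 and Hspa4l with 3.61 ± 1.21. Hspa1b, Hspa1a and Hspb1 stood at 1.16 ± 0.38, 1.06 ± 0.96 and 0.74 ± 0.17. In Rnf40ΔSC nerves Hspa4 was at 35.7 ± 1.91 and Hspa8 at 25.8 ± 0.49, while Hspb8 was at 3.69 ± 1.97 and Hspa4l at 1.10 ± 0.27. Levels of genes with few unique words may be too low. The same holds for genes whose union includes exons little used in the nerve. This length was 11792 bases for Hspa4l and 1950 for Hspb8.

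**Figure D4:**
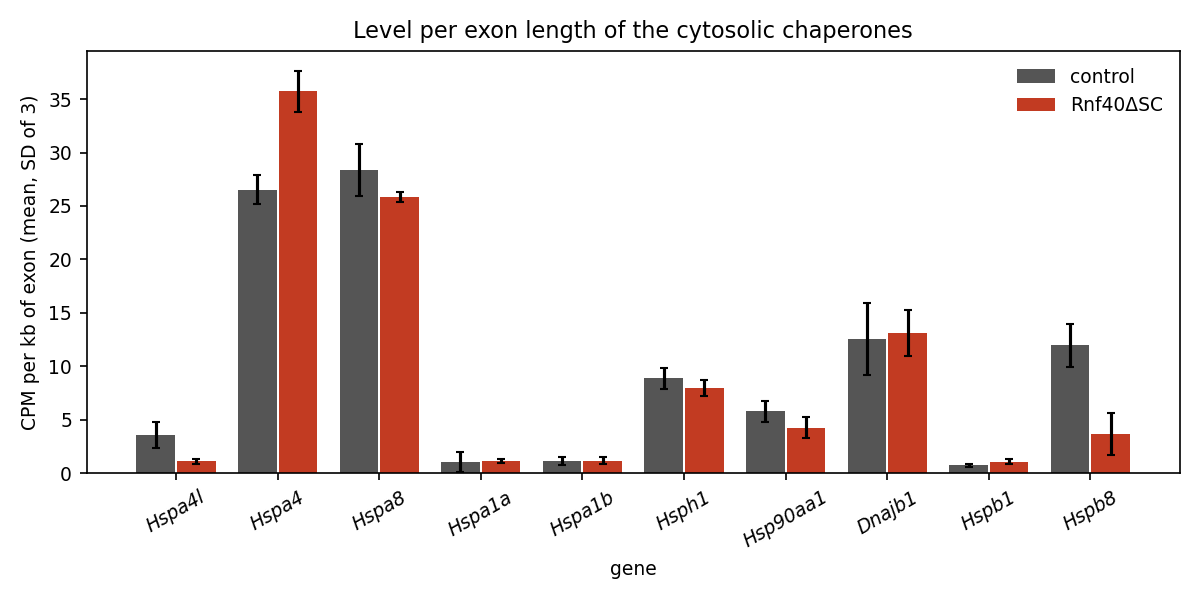
Level of each gene as CPM per kb of exon, as the mean of 3 libraries with the SD as bar, in control (grey) and Rnf40ΔSC (red). Hspa4 stands at 26.5 and 35.7 CPM per kb, and Hspa4l at 3.61 and 1.10.

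To place the set within its pathway, 9 further lists of chaperones and their regulators were examined by family membership. Of 88 genes tested, 8 (9.09%) were lower and 18 (20.5%) higher at an adjusted p of 0.05, and 62 did not pass, beside 16.2% lower and 15.4% higher among all genes. Their median log2 fold change was 0.15, against -0.0026 over all genes. By the study's limits 3 of 88 were lower and 3 higher, beside 5.05% lower and 3.73% higher among all genes. With DESeq2 without a fold-change prior, 5 of 89 were lower and 10 higher, beside 1178 and 1110 of 13556 genes. Under total-count scaling 3 of 88 were lower and 45 higher, beside 880 and 3766 of 11371 genes. Without control replicate 3, 10 of 88 were higher, beside 1293 of 11615 genes.

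Of 4 small heat shock genes tested, 2 were lower, against 1 under total-count scaling and 3 without Rnf40ΔSC replicate 3, the library with higher muscle counts than the others of its genotype. The 2 that did not pass in the main analysis, Hspb6 and Hspb7, were highest in that library and were named after their values were seen. Hspb6 had 46.0, 43.6 and 59.4 normalized counts in control and 22.4, 19.3 and 86.2 in Rnf40ΔSC libraries, and Hspb7 had 17.5, 15.3 and 6.89 against 2.48, 7.23 and 54.3. The part of muscle RNA in the values of this list was not tested. Hspb2 had 71.5, 69.7 and 61.1 normalized counts in control and 12.4, 26.5 and 20.7 in Rnf40ΔSC libraries, a log2 fold change of -1.79 (SE 0.25, adjusted p = 1.86e-07 from edgeR, 3.48e-12 to 3.23e-05 over all alternatives). Cryab, the alpha B-crystallin gene and the most abundant of the list, fell from 2568 ± 232 to 1872 ± 207 (SD, n = 3 each; log2 fold change -0.46, SE 0.09, adjusted p = 7.75e-05 from edgeR), but did not pass under total-count scaling (adjusted p = 0.0719, range over all alternatives 1.32e-06 to 0.0719). Of 5 other HSP70 genes tested, 1 was lower and 1 higher. Hspa12b, which is known from endothelial cells, fell by 1.39 (SE 0.28, adjusted p = 0.000106 from edgeR), and the abundant Hspa12a had a log2 fold change of 0.21 (SE 0.09, adjusted p = 0.0709 from edgeR, 3.56e-05 to 0.329 over all alternatives). Hspa12a passed under total-count scaling, with at least 10 counts in every library, and without control replicate 2 or Rnf40ΔSC replicate 2. Among 16 J-domain genes, 1 was lower and 4 were higher. Dnaja4 fell by 0.98 (SE 0.16, adjusted p = 9.33e-06 from edgeR), but shares 1581 exon bases with Wdr61 on the opposite strand. Dnajb6 rose by 1.25 (SE 0.29, adjusted p = 0.000611 from edgeR), and 46.7% of its words were unique, with 249 exon bases shared with Gm5129 on the opposite strand. Dnajc7, the most abundant, rose by 0.35 (SE 0.10, adjusted p = 0.00751 from edgeR), and did not pass without control replicate 3 (adjusted p = 0.061, range over all alternatives 8.44e-06 to 0.061). It shares 287 exon bases with Nkiras2 and 154 with Cnp, both on the opposite strand.

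Of 7 nucleotide exchange factors of the BAG and related families, 2 were lower and 1 higher. Bag2, a cochaperone that inhibits the ubiquitin ligase CHIP, had 20.4 ± 9.18 normalized counts in control and 44.5 ± 3.45 in Rnf40ΔSC nerves (SD, n = 3 each; log2 fold change 1.20, SE 0.27, adjusted p = 0.000535 from edgeR). Bag3, the partner of Hspb8 in selective autophagy, had a log2 fold change of -0.29 (SE 0.12, adjusted p = 0.0515 from edgeR). Over all alternatives Bag3 lay between -0.33 and -0.025, with an adjusted p from 0.0515 to 0.888. Of 16 genes for HSP90 and its cochaperones, 1 was lower and 2 were higher. Hsp90ab1, the constitutive HSP90, had 1664, 1738 and 1740 normalized counts in control and 1417, 1523 and 1538 in Rnf40ΔSC libraries, but a log2 fold change of -0.20 (SE 0.08, adjusted p = 0.0577 from edgeR) that did not pass and was 0.07 under total-count scaling. Without Rnf40ΔSC replicate 3 it passed (adjusted p = 0.0344, range over all alternatives 0.0344 to 0.521). Fkbp4 fell by 0.46 (SE 0.14, adjusted p = 0.0109 from edgeR), but did not pass in DESeq2 (adjusted p = 0.089), under total-count scaling (0.298) or without control replicate 3 (0.061), over a range of 0.00921 to 0.298.

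Of 13 genes of the chaperonin and its cofactor prefoldin, 4 were higher and 9 did not pass. Pfdn2, a prefoldin subunit, had 55.55 ± 4.88 normalized counts in control and 119 ± 29.7 in Rnf40ΔSC nerves (SD, n = 3 each; log2 fold change 1.08, SE 0.18, adjusted p = 7.21e-06 from edgeR), and shares 535 exon bases with Klhdc9 on the opposite strand. The abundant Cct2 had a log2 fold change of 0.18 (SE 0.09, adjusted p = 0.141 from edgeR, 0.000215 to 0.351 over all alternatives), and passed under total-count scaling and without Rnf40ΔSC replicate 3. Of 10 mitochondrial chaperones, 3 were higher and 7 did not pass, with Hspa9 at 0.41 (SE 0.10, adjusted p = 0.000937 from edgeR). Of 14 chaperones of the endoplasmic reticulum, 2 were higher and 1 lower, with Hspa5 at 0.32 (SE 0.09, adjusted p = 0.00371) and the most abundant, Calr, at 0.09 (SE 0.09, adjusted p = 0.455 from edgeR, 0.00106 to 0.947 over all alternatives), which passed under total-count scaling. That scaling made 10 chaperonin and prefoldin, 7 mitochondrial and 9 endoplasmic reticulum genes higher, beside 3766 of all 11371 genes tested.

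Of 3 heat shock factor genes and regulators tested, 1 was higher. Hsf1, the factor that drives the heat shock response, was higher by 0.43 (SE 0.17, adjusted p = 0.0474 from edgeR), at the edge of the threshold, and did not pass in 9 of the alternatives (adjusted p from 0.00097 to 0.203 over all). Hsbp1, which binds to HSF1, had a log2 fold change of -0.0008 (SE 0.10, adjusted p = 0.996 from edgeR, 0.0311 to 0.996 over all alternatives), and was higher by 0.27 under total-count scaling. Of 15 immediate early genes tested, which respond to handling and stress, 2 were lower and 1 was higher. Klf6 fell by 0.45 (SE 0.10, adjusted p = 0.000531 from edgeR), and not under total-count scaling (adjusted p = 0.135, range over all alternatives 0.000142 to 0.135).

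**Figure D5:**
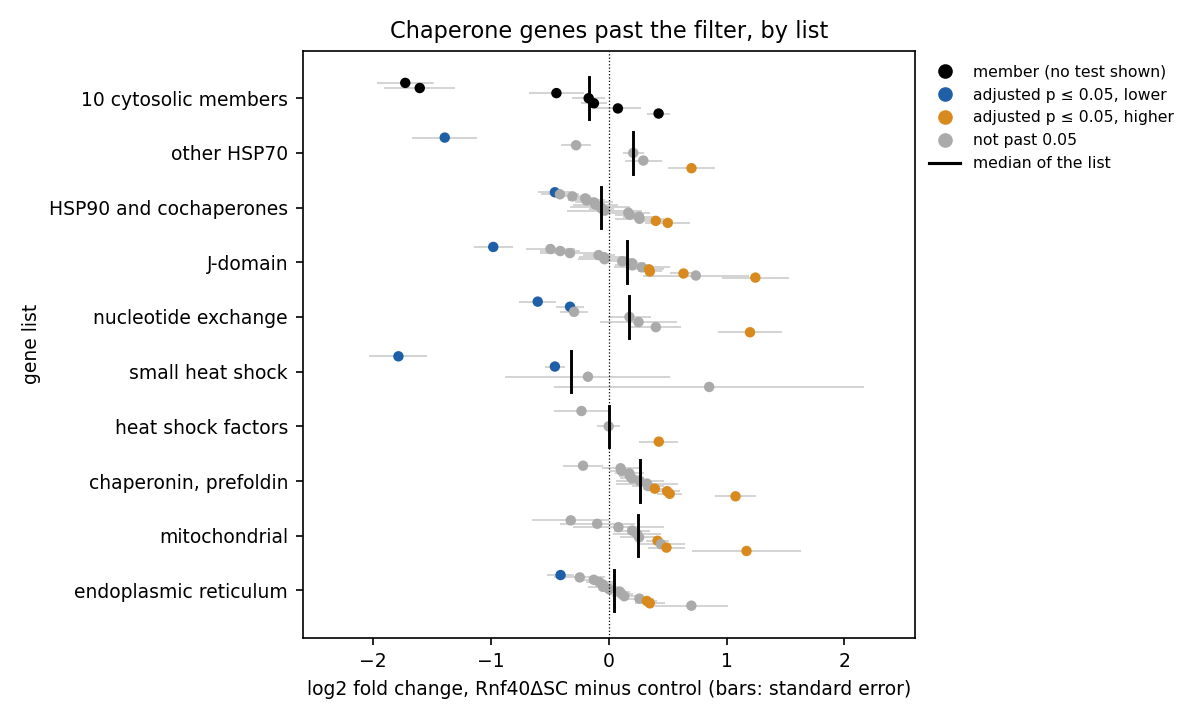
Log2 fold change of Rnf40ΔSC minus control for the genes tested in the set and in 9 further chaperone lists, with the SE as bars, the median of each list as a black line, members in black, and colour in the other lists for an adjusted p of 0.05 or less. The 2 members farthest to the left are Hspa4l at -1.73 and Hspb8 at -1.61, and the medians of the chaperonin and mitochondrial lists are 0.26 and 0.25.

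Finally, 9335 other genes whose base mean was 20 or more were compared with Hspa4l by the root mean square difference of log2 CPM, centred on each gene's mean, over the 6 libraries. The nearest was H2-DMb1, a class II MHC gene, at 0.17, with 44.5, 66.5 and 62.0 normalized counts in control and 14.1, 12.1 and 19.2 in Rnf40ΔSC libraries. Pmvk, an enzyme of cholesterol synthesis, followed at 0.18, Il16 at 0.24 and Nfkbib and Ctnna3 at 0.25 each. All of these genes were chosen for likeness in the same libraries, so that their lower values in Rnf40ΔSC nerves are given as a description.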

How the data were processed

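Total RNA of 6 pools of 3 sciatic nerves was sequenced. The deposited values are raw counts per gene, which the authors obtained with HTSeq from uniquely mapped reads aligned to mm9. The study's methods name TopHat as the aligner, whereas the labels name Bowtie2. The study's methods name a directional kit and the labels another one, and annotation and strand setting of the counting are not given in the sources used here, so that overlapping genes on either strand are uncertain. In R 4.3.3, edgeR 4.0.16 filtered genes by filterByExpr, scaled by TMM and fitted genotype alone in a robust quasi-likelihood model, with Benjamini-Hochberg adjustment over 11371 genes. Normalized counts are scaled to the arithmetic mean effective library size, log2 CPM used a prior count of 2, and SEs come from the fitted model. Exon lengths, positions and 31-base words come from GENCODE vM1 of mm9, and promoter windows from RefSeq. Scripts were tested on simulated data.

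The members and lists were chosen with earlier results of these data known. Named genes were the 10 members, Rnf40 and Rnf20, in each other list the genes called by the study's limits, the most abundant gene and, with none called, the one of smallest adjusted p, the defining and most abundant markers (a Schwann cell gene among them is not reported here), and the 5 genes most like Hspa4l. Alternatives were RLE and total-count scaling, no filter on low counts or at least 10 counts in every library, DESeq2 1.42.0 with and without a fold-change prior, the replicate block, a prior count of 0.5 for the spread, and leaving out each library. A base mean scaled to the geometric mean library size was added after seeing the data.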

Additional observations from a re-analysis of the deposited data

How the results depend on the processing

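Total-count scaling moved the numbers of genes past the limits and the log2 fold change of Hspa4l the most. It gave 880 lower and 3766 higher genes at the adjusted p, 263 lower and 1020 higher by the study's limits, 3 lower and 45 higher among the other chaperones, and a log2 fold change of -1.46 for Hspa4l. DESeq2 gave 1178 lower and 1110 higher genes at the adjusted p without a fold-change prior and 1184 and 1120 with it, and 5 lower and 10 higher other chaperones either way. By the study's limits DESeq2 gave 493 lower and 369 higher genes without the prior and 445 and 325 with it. Leaving out 1 library gave from 10 (without control replicate 3) to 23 (without Rnf40ΔSC replicate 3) higher other chaperones. Among all genes 1293 of 11615 and 1915 of 11499 were higher in these settings, in that order. The cause of these shifts beyond the scaling, the test and the fewer libraries was not tested.

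The members Hspa8, Hsph1 and Dnajb1, which did not pass, changed sign as given with their values, as did 3 other named genes. Under total-count scaling Hsp90ab1 went from -0.20 to 0.069, Dcn, a lower fibroblast marker, from -0.26 (adjusted p = 0.00382 from edgeR) to 0.0049 (0.962, range over all alternatives 0.000725 to 0.962), and Hsbp1 to 0.27, where it passed (0.0311). Hsbp1 was also at 0.0050 with RLE, 0.0077 and 0.0076 with DESeq2 without and with the prior, 0.0073 with no filter on low counts, 0.013 with at least 10 counts in every library, and between -0.084 and 0.061 with 1 library left out.

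Replicate numbers showed no sign of pairing, since libraries of the same number had correlations across genes of -0.095, -0.015 and -0.062. Libraries of unlike number had correlations from -0.031 to 0.104. As these are deviations from means of 3 libraries, they cannot exclude that libraries of the same number were processed together. With the replicate block, 1837 genes were lower and 1727 higher, 573 and 416 by the study's limits, Hspa4l was at -1.67, and Myh11 passed. With base means scaled to the geometric mean library size, an alternative chosen after seeing the data, 567 genes were lower and 415 higher by the study's limits, against 574 and 424.

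At 0.414 to 0.823 CPM per read, Hspa1a, Hspa1b and Hspb1 did not pass the filter and were not tested.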
